A study of Mus musculus with 4 samples.

Results

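The cytochrome P450 genes of families 1 to 3 were read across liver RNA of food-deprived and control mice, in mothers and in fetuses. They were taken as every gene probe whose name in the scanner files is Cyp, then 1, 2 or 3, then a lower-case letter and digits. This gave 66 of 41174 gene probes and 43 of 27962 gene names, in 14 subfamilies, and 21 of the 43 genes had several probes. Liver RNA of C57BL/6J mice, an inbred laboratory strain, was hybridised to 4 two-colour Agilent arrays on 1 slide, 2 for the mother and 2 for the fetus. The groups were maternal liver under food deprivation and under the control condition, and fetal liver under food deprivation and under the control condition. The labels state free access to chow and tap water in the housing conditions common to all groups. The design text gives 5 to 10 animals pooled per condition and a dye swap of the pooled RNA, so that array 1 carried the food-deprived pool in Cy5 and array 2 carried it in Cy3. The sources used here do not give how long food was withheld, the gestational stage or the sexes of the fetuses.

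Cytochrome P450 enzymes are haem proteins of the endoplasmic reticulum that insert oxygen into their substrates, with electrons from P450 oxidoreductase. Families 1 to 3 hold most of the liver's drug- and steroid-metabolising forms, and several are switched on by receptors for foreign compounds: the aryl hydrocarbon receptor for family 1, and CAR and PXR for members of Cyp2b, Cyp2c and Cyp3a. In the adult mouse liver many of them are expressed around the central vein, several differ between the sexes, and most come on around or after birth. The genes lie in tandem clusters of close copies, which makes probe specificity a question for each of them.

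The Cyp2a4 and Cyp2a5 probes are shown because their overlap bears on the fetal result for Cyp2a4. Cyp2a4 is a testosterone hydroxylase and Cyp2a5 a coumarin hydroxylase. The files place all 4 of their probes within chr7:23210886-23212279 (mm7, plus strand). The Cyp2a4 probe A_51_P377154 and the Cyp2a5 probe A_52_P246252 overlapped over 38 bases with 3 adjacent mismatches, T30A, T31G and C32A, counted from 1 at the 5′ end of the Cyp2a4 probe with its base given first. The other Cyp2a5 probe, A_52_P246255, shared its last 20 bases with the Cyp2a4 probe. Below, capitals mark the mismatched bases in the first 2 sequences and the shared bases in the third; each is a stretch of 30 bases of a probe of 60.
Cyp2a4 probe A_51_P377154, bases 23 to 52: aggacacTTCgtagacttgcagaggatatt
Cyp2a5 probe A_52_P246252, bases 1 to 30: aggacacAGAgtagacttgcagaggatatt
Cyp2a5 probe A_52_P246255, bases 31 to 60: cttagaaaagGTCAAAGGTACAGAAGAAAC

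The second pair is shown because both genes fell in the mother. One of the Cyp2c40 probes (chr19:39680672-39696310, mm7, minus strand, a span longer than the probe) and the Cyp2c54 probe (chr19:39941403-39963984, mm7, minus strand) overlapped over 46 bases with 8 mismatches, marked in capitals.
Cyp2c40 probe A_52_P200121: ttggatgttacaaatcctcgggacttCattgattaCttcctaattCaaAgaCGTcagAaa
Cyp2c54 probe A_52_P154580: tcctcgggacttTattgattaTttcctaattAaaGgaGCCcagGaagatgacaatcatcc

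Probes were called alike when they shared a run of at least 20 bases or at least 80% of an overlap of at least 30 bases. By that measure 7 of the 66 probes, of 6 genes, were alike a probe of another P450 name, and none was alike a probe outside the families. The third such pair was Cyp2j11 with Cyp2j13, which overlapped over 30 bases with 2 mismatches. Both Cyp2d9 probes shared 27 bases with each other and so are not separate readings. The Cyp3a41 probe (chr5:144587472-144587531, mm7, minus strand) and both Cyp3a44 probes (chr5:144587558-144587617 and chr5:144587795-144587854) were placed side by side by the files, and which gene's transcripts each bound was not tested. Probes were compared with probes and not with transcripts. Of 59 protein-coding genes of the families in the RefSeq table, 15 had no probe of their name, 4 of them Cyp2c and 3 Cyp3a, and whether their transcripts bound these probes was not tested.

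A gene was measured when its probe was well above background in the food-deprived or the control channel on both arrays of a comparison, and the brightest measured probe stood for it. A call needed a mean change of 2-fold or more, with 1.5-fold or more the same way on each array; "rose" and "fell" are kept for called genes. Levels are log2 of the normalised intensity of 1 probe, and ratios are log2 of food deprivation over control, array 1 before array 2. The titles number the pools 1 and 2 along with the dye orientation, and whether both arrays of a comparison carried the same RNA is not settled by the labels. They were read as 1 pool per condition after the design text, so there is no replicate check and no p-value. The gap between the arrays is then technical, and with separate pools it would also hold the spread between pools. Its SD per array was 0.22 for the 41 P450 genes measured in the mother and 0.12 for the 35 measured in the fetus, against 0.16 in the mother and 0.15 in the fetus for all measured genes. Not measured were Cyp2c65 and Cyp2c66 in the mother, and Cyp1a1, Cyp1a2, Cyp2b10, Cyp2c38, Cyp2c44, Cyp2c66, Cyp2d13 and Cyp3a11 in the fetus. All 5 hepatocyte markers were well above background in every pool, and their summed log2 level was 16.9 to 17.6.

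In the mother, several P450 genes were lower under food deprivation, most of them Cyp2c. Of 41 measured genes 11 fell and none rose, while 32 lay below 0. Of all measured genes 1.91% fell and 1.58% rose. The median log2 ratio of the P450 genes was -0.53, against -0.01 for all genes. In bulk RNA, fewer cells of a type and less RNA per cell cannot be told apart.

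**Figure D1:**
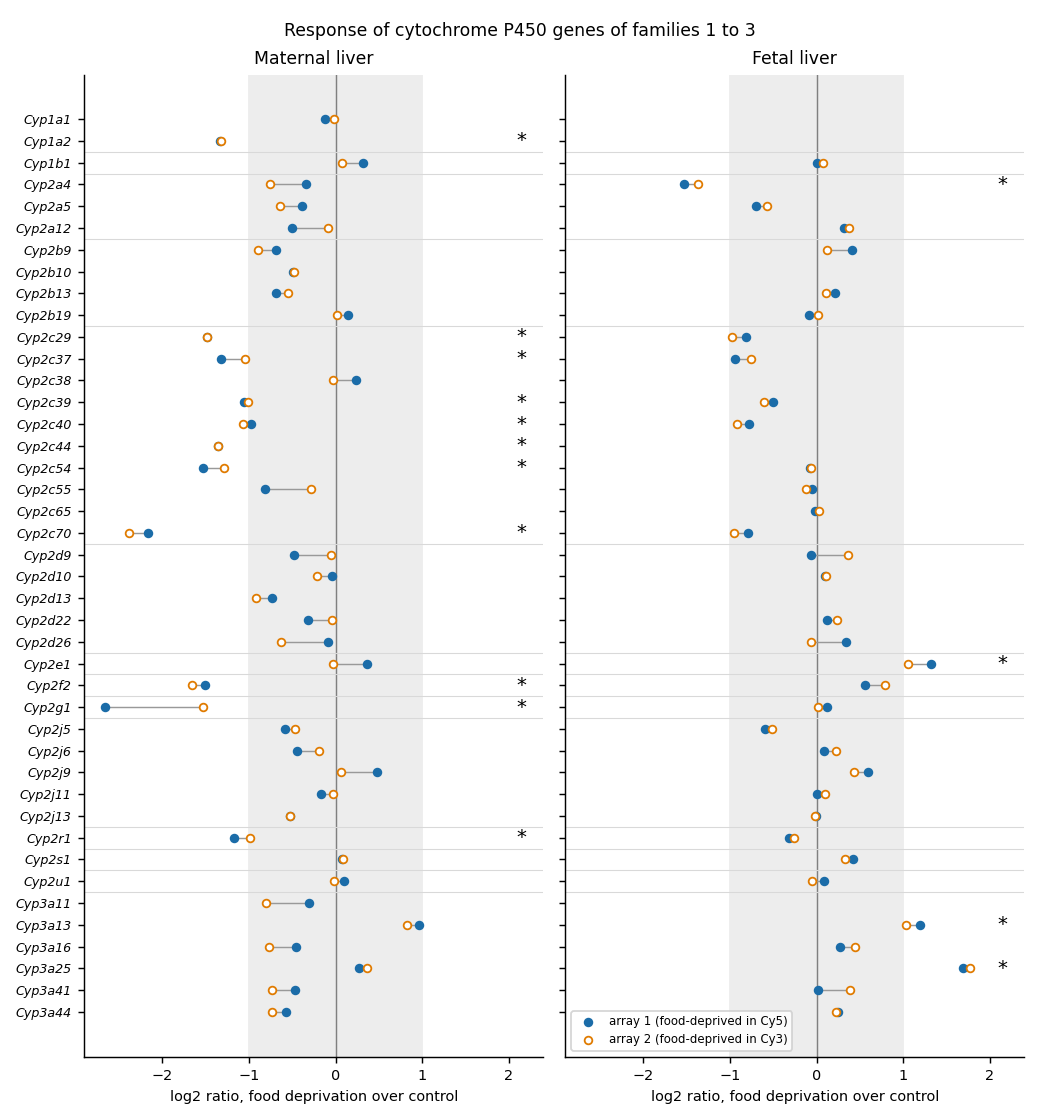
Log2 ratio of food deprivation over control (x axis) for each measured gene (y axis, grouped by subfamily) in maternal liver (left) and fetal liver (right). Filled points are array 1, open points array 2, the grey band is the range under 2-fold and an asterisk marks a called gene: 11 fell in the mother, 7 of them Cyp2c, and 3 rose and 1 fell in the fetus.

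The Cyp2c subfamily held most of the falls, with 7 of its 9 measured genes called lower and a median of -1.18. Cyp2c70, the enzyme that makes muricholic acids in the mouse, had levels of 13.81 and 13.26 in food-deprived mothers, against 15.98 and 15.65 in control mothers. It fell 4.84-fold (-2.16 and -2.39). Cyp2c29, a CAR-inducible drug-metabolising form, had 12.92 and 13.26 in food-deprived mothers, against 14.40 and 14.74 in control mothers, a fall of 2.79-fold (-1.48 and -1.48). Cyp2c54 had 9.66 and 10.48 in food-deprived mothers, against 11.19 and 11.77 in control mothers (-1.53 and -1.28). Cyp2c44, an epoxygenase of arachidonic acid, had 13.04 and 12.88 in food-deprived mothers, against 14.40 and 14.24 in control mothers (-1.36 and -1.35). In each of these genes both food-deprived values lay below both control values. Within each array the call itself fixes that order, here and for the falls below, so it adds no support.

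The other Cyp2c falls were smaller. Cyp2c37, another CAR-inducible form, had 12.88 and 12.81 in food-deprived mothers, against 14.20 and 13.86 in control mothers (-1.32 and -1.05), and its second probe gave -1.42 and -1.22. Cyp2c39, for which retinoic acid is a substrate in the mouse, had 11.03 and 11.54 in food-deprived mothers, against 12.09 and 12.56 in control mothers (-1.06 and -1.01). Cyp2c40, a female-predominant form, had 13.33 and 14.14 in food-deprived mothers, against 14.31 and 15.21 in control mothers (-0.98 and -1.07), and its second probe gave -1.34 and -0.97. Here the arrays differed in level more than in ratio, and the food-deprived and control values still did not overlap. The measured Cyp2c genes that did not pass were Cyp2c55 (-0.81 and -0.28) and Cyp2c38 (0.24 and -0.03). Cyp2c55 did pass as lower with the scanner software's own log ratios and with the authors' deposited series table. Its signal as processed by that software was 77.4 and 73.3 in food-deprived mothers, against 324 and 296 in control mothers.

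**Figure D2:**
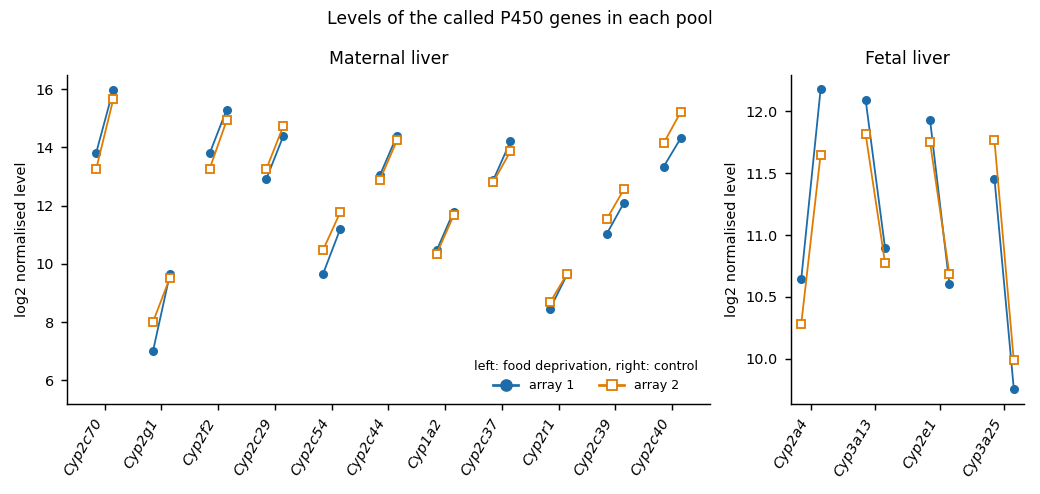
Log2 normalised level (y axis) of the genes called in maternal liver (left) and fetal liver (right), with the food-deprived pool on the left of each pair and the control pool on the right. Lines join the channels of 1 array (filled circles array 1, open squares array 2); all 11 maternal genes and Cyp2a4 in the fetus slope up to the control pool, and Cyp3a13, Cyp2e1 and Cyp3a25 in the fetus slope down to it.

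The remaining maternal falls were spread over 4 subfamilies. Cyp2f2, the naphthalene-activating form of mouse airway and liver, had levels of 13.79 and 13.27 in food-deprived mothers, against 15.30 and 14.92 in control mothers, and fell 2.99-fold (-1.50 and -1.66). The lung airway marker list stood at 8.81 and 8.80 in food-deprived mothers, against 8.74 and 8.82 in control mothers. Only 2 of its 4 markers were well above background. Cyp1a2, an oxidiser of aromatic amines under the aryl hydrocarbon receptor, had 10.46 and 10.34 in food-deprived mothers, against 11.79 and 11.66 in control mothers (-1.34 and -1.32), and its second probe gave -1.49 and -1.10. Cyp2r1, a vitamin D hydroxylase, had 8.46 and 8.68 in food-deprived mothers, against 9.63 and 9.66 in control mothers (-1.17 and -0.98). Food-deprived and control values did not overlap in these 3 genes, an order that the call again fixes within each array.

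Cyp2g1, known as the steroid hydroxylase of the olfactory mucosa, had 6.99 and 8.00 in food-deprived mothers, against 9.65 and 9.53 in control mothers. It fell 4.27-fold, and its arrays were the farthest apart of the called genes (-2.66 and -1.53). The mean of -2.09 depended on the treatment of the background: it was -2.50 with no local background subtraction, -3.58 in the scanner software's own ratios and -3.63 in the authors' deposited series table. The mean was -2.41 when any local background more than 20 above its spot was replaced by the array median. Without that step, the correction added a median of 129 (Cy3) and 148 (Cy5) to dim spots of array 2. It added 49 and 58 on array 1, and with that step 49 and 57 on array 2. The processed signal of Cyp2g1 was 185 and 168 in food-deprived mothers, against 2474 and 1803 in control mothers. The second Cyp2g1 probe was not well above background in any pool, so the fall rests on 1 probe.

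No gene of Cyp2a, Cyp2b, Cyp2d, Cyp2j or Cyp3a passed the rule in the mother by its brightest probe. Within Cyp3a, the values of Cyp3a11, the main drug-metabolising member, were -0.30 and -0.80, those of Cyp3a16 -0.45 and -0.77, and those of Cyp3a41 -0.46 and -0.73. The brightest Cyp3a44 probe gave -0.57 and -0.73. Against these, Cyp3a13 lay above 0 at 0.97 and 0.82, and Cyp3a25 at 0.27 and 0.36. The 5 Cyp2d genes had means of -0.82 to -0.13, the 5 Cyp2j genes -0.53 to 0.27 and the 4 Cyp2b genes -0.79 to 0.08. Cyp1a1 gave -0.12 and -0.02 and Cyp1b1 0.32 and 0.07, but their levels in control mothers, 6.88 and 6.77 for Cyp1a1 and 6.86 and 6.77 for Cyp1b1, were close to those of probes not well above background (6.51 and 6.43 for the second Cyp2g1 probe), where a fall could not have been seen. Cyp2e1, which oxidises ethanol and acetone, gave 0.37 and -0.03. Cyp2s1 (0.07 and 0.09) and the fatty acid hydroxylase Cyp2u1 (0.10 and -0.02) were also dim, at levels of 7.25 to 7.43.

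In the fetus few P450 genes changed. Of 35 measured genes 3 rose and 1 fell, while 0.477% of all measured genes rose and 0.273% fell. The median was 0.07, against 0.00 for all genes. Cyp3a25, a Cyp3a form of adult liver, had levels of 11.45 and 11.76 in fetuses under food deprivation, against 9.76 and 9.99 in control fetuses. It rose 3.33-fold (1.69 and 1.77), and its second probe also passed (1.18 and 1.11). Cyp2e1 had 11.93 and 11.75 in fetuses under food deprivation, against 10.61 and 10.69 in control fetuses, and rose 2.28-fold (1.32 and 1.06). Cyp3a13, which is also expressed in the mouse intestine, had 12.09 and 11.81 in fetuses under food deprivation, against 10.90 and 10.78 in control fetuses, and rose 2.16-fold (1.19 and 1.03).

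The fetal fall was that of Cyp2a4, with levels of 10.65 and 10.28 in fetuses under food deprivation, against 12.17 and 11.65 in control fetuses. It fell 2.72-fold (-1.53 and -1.36). Its second probe gave -0.98 and -0.94, just short of the rule. That probe resembles no Cyp2a5 probe on the array, but it was not compared with Cyp2a5 transcripts. The Cyp2a5 probe that differs from the called Cyp2a4 probe by 3 bases gave -0.70 and -0.57, and the one that shares 20 bases with that probe gave -1.18 and -0.83 and passed. All 4 probes lay below 0 on both arrays, and which of the genes supplied the signal of each probe was not tested.

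No label gives the sex of the fetal pools. Xist, the RNA of the inactive X chromosome, gave -3.58 and -2.62 in the fetus, and the Y-linked Ddx3y (0.57 and 0.24) and Eif2s3y (0.56 and 0.19) lay above 0, while Xist gave 0.08 and -0.03 in the mother. Of 7 measured P450 genes known as female-predominant in the adult mouse, 1 fell in the fetus (Cyp2a4) and none rose, with a median of 0.20. Of all 35 P450 genes measured in the fetus 1 fell and 3 rose, and of all measured genes 0.273% fell and 0.477% rose. On the female-predominant list, Cyp2c40 had a mean of -0.85 and Cyp2b9, Cyp2b13, Cyp3a16, Cyp3a41 and Cyp3a44 had means of 0.16 to 0.36. The part of sex in these fetal values was not tested.

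Several fetal Cyp2c genes lay below 0 without a call. Cyp2c29 (-0.82 and -0.98), Cyp2c37 (-0.94 and -0.75), Cyp2c70 (-0.79 and -0.96) and Cyp2c40 (-0.78 and -0.92) were short of the rule, and Cyp2c39 gave -0.50 and -0.60. Cyp2c54 (-0.08 and -0.06), Cyp2c55 (-0.06 and -0.12) and Cyp2c65 (-0.01 and 0.03) had levels of 6.62 to 6.80 in control fetuses, beside at most 6.55 for a Cyp1a2 probe that was not well above background, so a fall in them could not have been seen. Cyp2f2 gave 0.56 and 0.79, and the kidney- and liver-expressed epoxygenase Cyp2j5 gave -0.59 and -0.51. The 4 measured Cyp2d genes had means of 0.10 to 0.18. Cyp2c44 and Cyp3a11 had no fetal value, because the scanner software marked their spot as an outlier on 1 array each; the array that was left gave -0.59 for Cyp2c44 and 0.42 for Cyp3a11.

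These counts depended on the dye correction within arrays. With median centring in place of loess, Cyp3a25 alone passed in the fetus, which leaves 1 rise and no fall, and Cyp2g1 alone passed in the mother. The means of the 11 maternal genes were then -2.36 to -1.08, and those of the fetal genes were 1.93 for Cyp3a25, 1.42 for Cyp2e1, 1.34 for Cyp3a13 and -1.21 for Cyp2a4. The gap between arrays then widened, and Cyp2c29 (0.09), Cyp2c37 (0.23), Cyp2c39 (0.27), Cyp2c40 (0.60), Cyp2c44 (0.21) and Cyp2f2 (0.16) lay above 0 on maternal array 1, against -3.46 to -2.52 on array 2. Cyp2c70 gave -0.47 and -4.25.

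Lists of P450 genes by regulation or place in the liver were counted beside the 1.91% of all measured genes that fell in the mother and the 1.58% that rose. Of 7 measured genes known as pericentral, 4 fell and none rose (median -1.18), namely Cyp1a2, Cyp2c29, Cyp2c37 and Cyp2c54. Cyp2e1, Cyp2a5 and Cyp3a11 of that list did not pass by their brightest probes. The largest maternal falls, those of Cyp2c70, Cyp2g1 and Cyp2f2, were of genes outside that list. Of 7 CAR- and PXR-inducible genes 3 fell (median -0.55), and of 3 inducible through the aryl hydrocarbon receptor 1 fell. Of 6 genes listed as arachidonic acid epoxygenases, the Cyp2j genes and Cyp2c44, 1 fell, Cyp2c44 (median -0.42). No other measured Cyp2c gene was on that list, so its count speaks only for these 6. Of 8 female-predominant genes 1 fell, Cyp2c40, and all 8 had means below 0, of -1.02 to -0.49. The lists share members and overlap with the Cyp2c result. In the fetus, 1 of 5 measured pericentral genes rose (Cyp2e1) and 1 of 5 CAR- and PXR-inducible genes rose (Cyp3a13), beside 0.477% of all measured genes.

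Of the genes that serve the P450 enzymes, Por, the oxidoreductase that supplies their electrons, rose in the mother (1.65 and 1.59) and in the fetus (1.20 and 1.27). Beside 1.58% of all measured genes that rose and 1.91% that fell in the mother, 1 of 6 redox partners rose there and 2 fell, the cytochrome b5 gene Cyb5b (-1.48 and -1.36) and the b5 reductase gene Cyb5r3 (-1.20 and -0.95). Of 13 genes of haem synthesis and breakdown, 1 rose in the mother, Alas1 (1.13 and 0.91), which encodes the first enzyme of liver haem synthesis, and 1 fell, Alad (-1.31 and -0.98), which encodes the enzyme after it. Among 32 measured regulators of P450 genes in the mother, the C/EBP factor genes Cebpd (1.92 and 1.99) and Cebpb (1.08 and 1.13) rose. Ahr, the aryl hydrocarbon receptor gene, fell (-0.98 and -1.20). Of 33 regulators in the fetus, Cebpd (1.05 and 1.08) and Tef, a gene of the clock-output PAR bZIP factors (1.24 and 1.12), rose and none fell, while 0.477% of all measured genes rose in the fetus and 0.273% fell.

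Marker lists of other cells also differed between the maternal pools. The summed level of the Kupffer cell list was 13.4 and 13.3 in food-deprived mothers, against 14.2 and 14.1 in control mothers, with 5 of 5 markers well above background. The hepatocyte list was at 17.6 and 17.6 in food-deprived mothers, against 17.1 and 17.5 in control mothers. The intestine list was at 13.7 and 14.0 in food-deprived mothers, against 12.5 and 12.5 in control mothers, with 1 of 4 markers well above background. In the fetus, the hepatocyte list was at 17.3 and 17.3 under food deprivation, against 16.9 and 17.4 in control fetuses, and the intestine list at 10.5 and 10.6 under food deprivation, against 10.7 and 10.8 in control fetuses. The bile duct list was at 11.8 and 11.6 in food-deprived mothers, against 12.1 and 12.1 in control mothers, and at 12.6 and 12.4 in fetuses under food deprivation, against 12.8 and 12.8 in control fetuses. The exocrine pancreas list was at 10.01 and 9.96 in fetuses under food deprivation, against 9.70 and 9.71 in control fetuses, with 2 of 3 markers well above background. The part of these cells in the P450 values was not tested.

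The response of mother and fetus differed past the same rule in 7 of 34 genes measured in both, each lower in the mother, and none was higher. Of all such genes 1.79% were lower and 1.25% higher. The difference was taken between arrays of the same number, which carry the same dye orientation. Cyp2f2 had a maternal log2 ratio below its fetal one by 2.07 on array 1 and 2.45 on array 2. Cyp2g1 differed by -2.78 and -1.55, Cyp2c70 by -1.38 and -1.43, and Cyp2c54 by -1.45 and -1.22. In the fetus Cyp2f2 lay above 0 on both arrays, and Cyp2c70 lay below 0 in both mother and fetus. Fetal Cyp2g1 (6.70 and 6.74 in control fetuses) and Cyp2c54 (6.78 and 6.80) were so dim that no fetal fall could have been seen, so their differences restate the maternal falls.

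**Figure D3:**
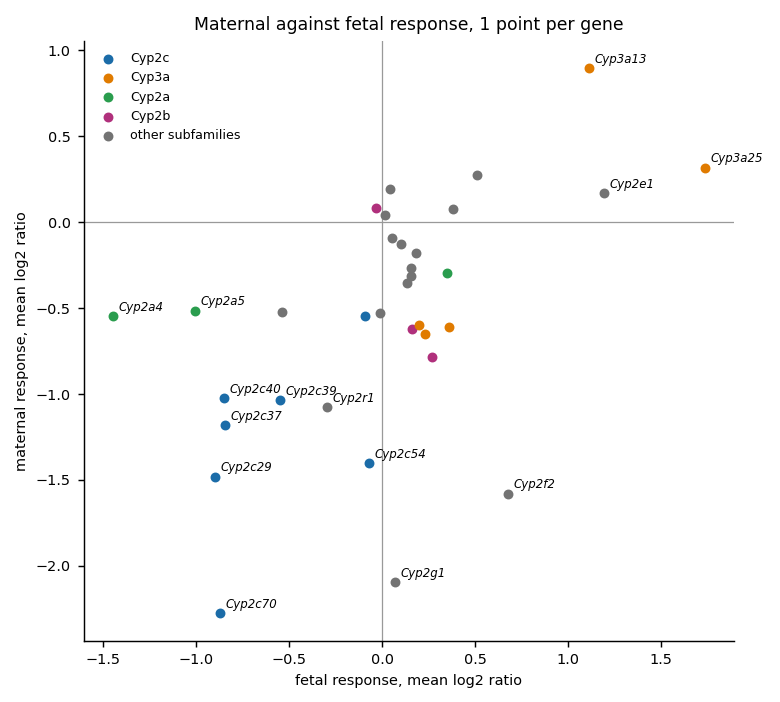
Mean log2 ratio of food deprivation over control in maternal liver (y axis) against fetal liver (x axis) for the 34 genes measured in both, 1 point per gene, coloured by subfamily. Cyp2c genes lie to the lower left or below 0, Cyp3a25, Cyp3a13 and Cyp2e1 to the right, and Cyp2f2 to the lower right.

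Cyp3a25 differed by -1.43 and -1.41 and Cyp2e1 by -0.96 and -1.09; both rose in the fetus and passed in neither direction in the mother. Cyp2b9, a female-predominant form, differed by -1.09 and -1.02 without passing in either, with -0.68 and -0.89 in the mother and 0.41 and 0.13 in the fetus. Its second probe gave a difference of -0.55 and -0.76, and the call was lost when the probes of a gene were averaged (-0.85). Cyp2a4 ran the other way, at 1.19 and 0.61, short of 2-fold in the mean. Cyp3a13 differed by -0.22 and -0.21 and lay above 0 in both. The median difference was -0.48, against -0.02 for all genes. By single probes, 8 of 46 were lower in the mother and none higher, while 1.44% of all probes were lower and 1.11% higher.

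In control liver, P450 levels were higher in the mother than in the fetus for most genes. Of 38 genes measured in the control pools, 28 were called higher in the mother and none lower, while 9.18% of all measured genes were higher and 10.4% lower. By single probes, 40 of 53 were higher and none lower, while 8.36% of all probes were higher and 8.75% lower. The median difference of genes was 2.50 on the log2 scale, against 0.02 for all genes. Levels were set against each other only within 1 probe and 1 dye. A gene that was measured only through the maternal channel had to be higher there, and 24 of the 28 passed when both groups had to be well above background.

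**Figure D4:**
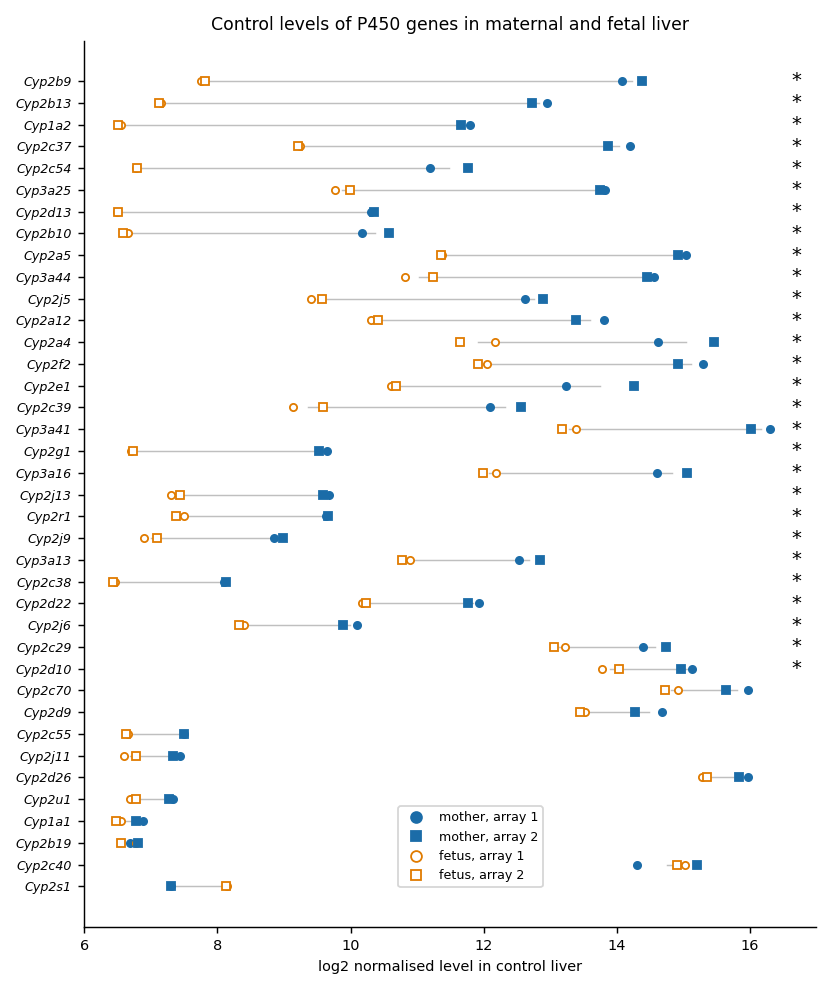
Log2 normalised level in control liver (x axis) of the 38 genes measured (y axis, ordered by difference), with filled blue points for the mother and open orange points for the fetus (circles array 1, squares array 2). An asterisk marks the 28 genes called higher in the mother, from Cyp2b9 at the top, and Cyp2s1 at the bottom is the gene with the lowest difference.

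Cyp2b9 had levels of 14.08 and 14.37 in control mothers, against 7.76 and 7.82 in control fetuses, which is 86.8-fold, and 17.6-fold by its other probe. Cyp2b13, its female-predominant neighbour, had 12.95 and 12.73 in control mothers, against 7.15 and 7.12 in control fetuses, or 52.2-fold, and 26.1-fold by its other probe. For genes dim in the fetus, these folds and their order depended on how the background was treated. The scanner software's processed signal of Cyp2b9 was 76843 and 73096 in control mothers, against 528 and 591 in control fetuses. That of Cyp2b13 was 30323 and 22550, against 171 and 171, a larger fold than for Cyp2b9. Cyp2b10, the classic CAR target, had 10.17 and 10.58 in control mothers, against 6.65 and 6.58 in control fetuses, where it was well above background on 1 of 2 arrays. The levels differ 13.6-fold, the log2 difference was 7.80 with the scanner software's processed signal, against 3.76 here, and the gene did not count when both groups had to be well above background. The brightest Cyp1a2 probe was not well above background in either fetal control channel, and its other probe was on 1 of 2 arrays. By the brightest probe, Cyp1a2 levels of 11.79 and 11.66 in control mothers were at least 36.7-fold higher than in control fetuses. The other probe gave 19.4-fold.

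Cyp2c37 (14.20 and 13.86 in control mothers, 9.25 and 9.20 in control fetuses) and Cyp2c54 (11.19 and 11.77 in control mothers, 6.78 and 6.80 in control fetuses) were 28.0-fold and 25.8-fold higher in the mother. Cyp2c54 was so dim in control fetuses that its fold also depended on how the background was treated. Its processed signal was 8428 and 9627 in control mothers, against 71.6 and 69.9 in control fetuses. Cyp3a25 was 15.1-fold higher, with 13.82 and 13.76 in control mothers, against 9.76 and 9.99 in control fetuses. Cyp2d13, with 10.31 and 10.36 in control mothers, was at least 14.3-fold higher, as it was not well above background in control fetuses. Cyp2a5 was 12.2-fold higher, with 15.04 and 14.92 in control mothers, against 11.38 and 11.36 in control fetuses. Cyp3a44 was 11.1-fold higher by its brightest probe, with 14.57 and 14.45 in control mothers, against 10.82 and 11.24 in control fetuses, and 37.5-fold higher by its other probe. All 5 measured Cyp3a genes were called, down to Cyp3a13 at 3.60-fold. The remaining calls included Cyp2j5 at 9.65-fold, Cyp2a4 at 8.74-fold (25.8-fold by its other probe), Cyp2f2 at 8.73-fold and Cyp2e1 at 8.57-fold, down to Cyp2d10 at 2.21-fold (6.92-fold by its other probe).

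Not every gene was called higher in the mother. By its brightest probe Cyp2c40 had 14.31 and 15.21 in control mothers, against 15.03 and 14.91 in control fetuses, so that its arrays disagreed in sign. Its other probe was higher in the mother on both arrays (0.83 and 0.73), at 1.72-fold short of the rule. Cyp2c70 had 15.98 and 15.65 in control mothers, against 14.92 and 14.72 in control fetuses, and at a mean difference of 0.99 was just short of the rule, as was Cyp2d9 at 0.99. Cyp2s1, a form known from epithelia outside the liver, was the only gene below 0 on both arrays, with 7.30 and 7.30 in control mothers, against 8.14 and 8.12 in control fetuses. Fetal liver is also a site of blood formation: the erythroid list was at 15.7 to 16.1 in the maternal pools and 18.2 to 18.9 in the fetal pools, and the part of that cell mixture in the control levels was not tested. Of 8 female-predominant genes 7 were called higher in control mothers, beside 28 of all 38 measured P450 genes and 9.18% of all measured genes. Of the 2 genes listed as male-predominant, Cyp2d9 and Cyp2u1, none was called, and Cyp2d9 was just short of the rule. Xist differed by 2.37 and 2.31 between control mothers and control fetuses, Ddx3y by -2.65 and -2.95 and Eif2s3y by -3.71 and -3.83, and the part of sex in these differences was not tested.

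Several probes were measured for 14 genes in the mother and 12 in the fetus, with a median gap between the highest and lowest probe mean of 0.15 in the mother and 0.35 in the fetus. In the mother, the Cyp2a5 probe A_52_P246252 passed (-1.13 and -1.16) where the brighter A_52_P246255 did not (-0.39 and -0.64), a gap of 0.63 in the mean. The Cyp2b13 probe A_52_P289091 passed (-0.86 and -1.30) where the brighter A_51_P492339 did not (-0.68 and -0.55). Probe means differed in sign for 3 genes in the fetus, Cyp2b9, Cyp2b13 and Cyp3a44, and for Cyp2c38 in the mother, and none of these means was beyond 0.27 in size. Counted by single probes, 16 of 56 fell and none rose in the mother, where 1.62% of all probes fell and 1.38% rose. In the fetus 4 of 48 rose and 2 fell, where 0.396% of all probes rose and 0.244% fell.

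**Figure D5:**
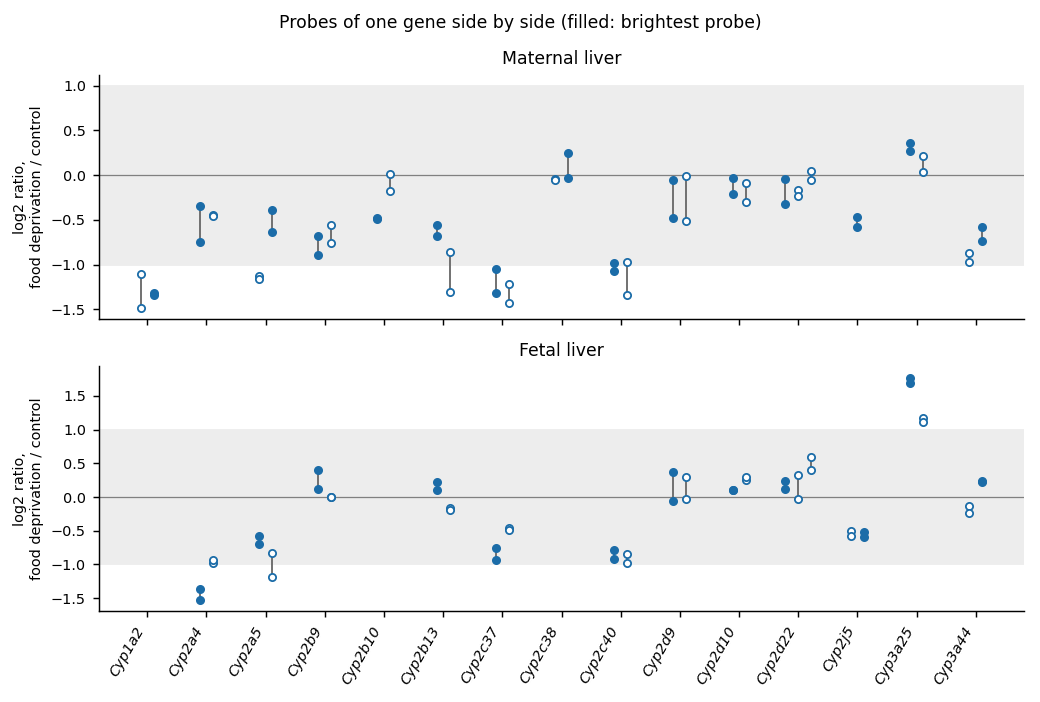
Log2 ratio of food deprivation over control (y axis) for each measured probe of the genes with several measured probes (x axis), in maternal liver (top) and fetal liver (bottom). Each pair of joined points is 1 probe on its 2 arrays, filled for the brightest probe of a gene and open for the others, and the grey band is the range under 2-fold; Cyp2a5 and Cyp2b13 have 1 probe past the rule and 1 short of it in the mother.

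Promoters were searched for letters of known liver factor motifs, since several Cyp2c genes fell together in the mother. The RefSeq table (GRCm38.p6) held promoters for 37 of the genes, 250 bases before to 50 bases after the start. The HNF4 motif CAAAGTCCA, the site of a nuclear receptor of hepatocytes, was present on either strand in 6 of 40 P450 promoters (15%) and in 0.475% of all 32851. Its carriers were Cyp2c40, Cyp2c65, Cyp2c70, Cyp3a11, Cyp3a16 and Cyp3a41a. The forkhead motif TGTTTAC was in 20% of P450 promoters and 3.65% of all. The TATA box letters TATAAA, on either strand anywhere in the window, were in 55% of P450 promoters and 13.6% of all. Their place ran from 234 bases before the start (Cyp3a11) to 40 after it (Cyp2c40), so a match need not be a TATA box. The 3 motifs do not contain one another. Tandem copies share sequence, so these promoters are not independent.

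In the mother, Cyp2c70 and Cyp2c40 fell and the 3 Cyp3a carriers did not pass, with means of -0.61 to -0.55, while Cyp2c65 was not measured. The falls of Cyp2c29 and Cyp2c39 occurred in genes whose window does not hold these letters. Cyp2c37, Cyp2c44 and Cyp2c54 also fell and were not among the carriers, but promoters were not held for every gene. A match is a description and not a site of binding. The 250 bases before the start of 3 carriers are given below (minus strand, RefSeq), with the motif in capitals; it begins 64 bases before the start of Cyp2c70 (chr19:40187287-40187536), 45 before that of Cyp2c40 (chr19:39812815-39813064) and 99 before that of Cyp3a16 (chr5:145469724-145469973).
Cyp2c70 promoter: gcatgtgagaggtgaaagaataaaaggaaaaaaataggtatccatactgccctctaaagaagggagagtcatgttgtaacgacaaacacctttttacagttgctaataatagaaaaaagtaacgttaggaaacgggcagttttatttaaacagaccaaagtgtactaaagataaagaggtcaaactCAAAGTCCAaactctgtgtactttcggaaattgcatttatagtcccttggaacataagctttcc
Cyp2c40 promoter: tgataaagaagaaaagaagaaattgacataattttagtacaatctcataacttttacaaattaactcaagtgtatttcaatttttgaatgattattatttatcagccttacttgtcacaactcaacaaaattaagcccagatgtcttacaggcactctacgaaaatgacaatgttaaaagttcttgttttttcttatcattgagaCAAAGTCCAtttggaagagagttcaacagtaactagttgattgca
Cyp3a16 promoter: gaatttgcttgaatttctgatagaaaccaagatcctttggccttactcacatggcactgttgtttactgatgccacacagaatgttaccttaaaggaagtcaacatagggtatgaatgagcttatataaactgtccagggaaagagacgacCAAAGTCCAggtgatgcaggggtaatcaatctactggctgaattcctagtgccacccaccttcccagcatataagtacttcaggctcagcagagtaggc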

How the data were processed

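The deposited scanner files hold spot and local background intensity values in both dyes and the software's log10 ratio of red over green, per the file headers, which name Agilent Feature Extraction 9.5.1.1 (9.5.3.1 per the submitters' processing notes). The series table deposited by the authors was read as a score: its size matched the ratio of processed red over green signal (r of at least 0.9999 on the log scale), its medians were -0.92, 0.94, -0.88 and 0.88, and the meaning of its sign is unknown.

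Intensities were corrected with normexp (offset 50) and normalised within arrays by loess, with control spots at weight 0, in R 4.3.3 with limma 3.58.1. Levels across arrays used Aquantile. Control spots were removed and outlier-marked spots left out on their array (215 to 257 of 43379 gene spots). Per array and dye, 53.2% to 69.7% of gene spots passed the software's background test and none was saturated. The arrays of a comparison counted as 1 replicate, whose number limits the precision. Where the fetal control channels did not pass it, a fold is given as "at least" the maternal mean over the dim probe's own level or, if higher, the array's lowest level that passed. Sequences were compared in Python 3.11.15. Of the 66 probes, 57 matched RefSeq by accession, 2 of them under another symbol (Cyp3a41 as Cyp3a41a, for example).

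Named in full were genes called in a response or in their difference, the 10 largest control differences and probes that disagreed; other genes came from fixed lists, when called in a response. Genes and lists were chosen with earlier results of these data known. Alternatives covered background correction, filters, probe choice, normalisation, signal source and each array left out.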

Additional observations from a re-analysis of the deposited data

Results flagged for a closer look

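By their brightest probes, 12 genes lay below 0 on both maternal arrays and above 0 on both fetal arrays; whether mother and fetus differ in these genes was not tested, since each condition was read as 1 pool. For 3 of the 12 the other measured probe lay below 0 on both fetal arrays, at -0.17 and -0.19 for Cyp2b13, -0.13 and -0.24 for Cyp3a44 and -0.0050 and -0.0010 for Cyp2b9. Fetal Cyp2g1 was close to background. The mother-minus-fetus difference of the mean log2 ratio was -2.26 for Cyp2f2, -2.16 for Cyp2g1 and -1.05 for Cyp2b9, which passed the 2-fold rule. It was -0.97 for Cyp3a16, -0.89 for Cyp3a44, -0.80 for Cyp3a41 and -0.78 for Cyp2b13, 4 genes listed as female-predominant in the adult mouse. It was -0.64 for Cyp2a12, -0.47 for Cyp2j6, -0.36 for Cyp2d22, -0.23 for Cyp2d10 and -0.15 for Cyp2j11.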

How the results depend on the processing

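No result reversed. With median centring in place of loess, 1 gene rose and 0 fell in the fetus, 1 fell in the mother and 4 were lower in the response difference, because the arrays then differed widely; all measured genes gave 68 higher and 23 lower in the fetus and 45 and 82 in the mother. The scanner software's own log ratios and the deposited series table each called 2 genes lower in the fetus (Cyp2c37 added), 1 higher in the mother and 1 higher in the difference (Cyp1b1 in both), and the scanner ratios called 228 and 172 of all genes in the fetus and 649 and 800 in the mother. Both settings also called Cyp2c55 lower in the mother and in the difference. No local background subtraction, and the processed signal at the 75th percentile, each called 1 gene lower in maternal control liver (Cyp2s1); the processed signal put the median of all genes at 0.16, against 0.02, and that of the P450 genes at 3.60, against 2.50. With each array left out, maternal falls were 10 and 10 (Cyp2r1 lost without array 1, Cyp2c40 without array 2), differences lower 6 to 9 and higher 0 to 1 (Cyp2a4), and control levels higher 27 to 30. With no replicate block, that is, without pairing arrays by number, the difference kept all 7 calls and the control level all 28. A filter on both conditions kept 24 of the 28. The other 75 counts stayed within 1.5 times. A slide block was not run, as all arrays share 1 slide. Genes not well above background in a group allow only bounds.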

Other observations

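A further 2 P450 probes of family 2 carry other names in the files. The one that RefSeq names Cyp2d12 gave mean log2 ratios of food deprivation over control of -0.19 in the mother and 0.18 in the fetus, and the one it names Cyp2d34 gave -0.10 in the mother and 0.22 in the fetus. Neither passed the rule.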
